A study of Mus musculus with 9 samples.

Results

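The 10 circadian clock genes Per1, Per2, Per3, Dbp, Tef, Nr1d1, Nr1d2, Arntl, Npas2 and Cry1 were followed on 9 one-color microarrays of mouse lung RNA. They were chosen by name, as 10 of the 20832 genes that the arrays measured, and each was represented by its brightest probe by the mean over all arrays. The control group held 4 arrays of lung and the irradiated group 5 arrays of irradiated left lung, all from male C57BL/6 mice. The labels give an age of 10 weeks for every array and do not say whether this was the age when the lung was taken. The paper describes taking lungs weeks to months after irradiation, so the age at that point may differ between arrays. The animals lived under 12 h of light and 12 h of darkness and, when irradiated, were anesthetized with zoletil and rompun. No label gives the dose, the region of the lung or the interval after irradiation. They also give no time of day at which lungs were taken, and it is not given in the sources used here. RNA was pooled over repeated experiments before labeling, so an array is a pool and not 1 animal, and p-values measure the spread between such pools. No label says whether the pools of a group came from separate animals. The paper describes taking irradiated and neighboring lung regions from the same mice, so pools of these regions could share animals.

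The clock of a mammalian cell is a loop of transcription factors and their own repressors that turns once a day in nearly every tissue, lung included. Arntl, also called Bmal1, pairs with Clock or with Npas2 and switches on the Per, Cry and Nr1d genes and the output factors Dbp and Tef through E-box elements. The Per and Cry proteins then shut off that pair, the Nr1d proteins (REV-ERB) repress Arntl and Npas2 through ROR elements, and Dbp and Tef act through D-box elements. Arntl and Npas2 therefore peak at about the opposite time of day from Dbp, Per3, Nr1d1 and Nr1d2.

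These elements were looked for in RefSeq promoter windows of the mouse assembly GRCm38.p6, which run from 250 bases before to 50 bases after a gene's start. Windows were found for 9 of the 10 genes, 12 windows in all. Both strands were searched. The letters were CACGTG for the E-box, CACGTT for the E-prime box, TTATGTAA for the D-box and ANTAGGTCA for the ROR element, and no match overlapped another. The E-box stood in 4 of the 12 windows, those of Cry1, Per1 and Tef, against 7.15% of all 32851 windows. The E-prime box stood in 2 of 12, those of Cry1 and Nr1d1, against 4.68%. The D-box was found in the Per3 window only, which held 2 copies, against 0.938% of all windows, and the ROR element in 1 Arntl window only, against 0.661%. The windows of Dbp, Nr1d2 and Npas2 held none of these letters, which says nothing of the factors, and Per2 had no window. A match is a description of the letters and shows no binding. The stretches below carry these matches in capitals because they are the elements through which genes of the loop are known to act on each other, and they read 5′ to 3′ on the strand of the gene. The Per1 stretch is chr11:69098761-69098810 on the plus strand, and the 2 Tef stretches, from 2 starts of that gene, are chr15:81802524-81802573 and chr15:81811254-81811303 on the plus strand. The Cry1 stretch, with the E-prime box first, is chr10:85185087-85185155, the Nr1d1 stretch is chr11:98775378-98775427 and the Per3 stretch is chr4:151044794-151044892, all on the minus strand. The Arntl stretch is chr7:113207530-113207556 on the plus strand, and its element lies just past the start.
Per1: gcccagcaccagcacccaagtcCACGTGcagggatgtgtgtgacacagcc
Tef, first start: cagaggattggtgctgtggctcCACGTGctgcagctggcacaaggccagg
Tef, second start: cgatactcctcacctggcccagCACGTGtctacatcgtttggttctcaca
Cry1: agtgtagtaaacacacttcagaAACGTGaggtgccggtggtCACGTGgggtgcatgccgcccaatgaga
Nr1d1: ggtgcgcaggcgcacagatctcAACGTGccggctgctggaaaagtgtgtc
Per3: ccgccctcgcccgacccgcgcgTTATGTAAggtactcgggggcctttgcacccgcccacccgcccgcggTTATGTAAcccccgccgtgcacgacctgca
Arntl: aaggcagaaAGTAGGTCAgggacggag

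All values are normalized log2 intensities, so a step of 1 is a doubling of the spot's signal, and levels of different probes are not compared. In bulk lung, a change in the cells present and a change in RNA per cell cannot be told apart. Spots of 9 genes were well above background throughout. The Npas2 probe was dim, well above background on 6 of 9, and fell short on control 1, irradiated 1 and irradiated 3. Over the arrays 72.8% to 89.1% of gene spots were well above background and none was saturated. The markers of type II and type I alveolar, club, ciliated and endothelial cells were well above background on every array. Muscle and fat genes differed between arrays: relative to the control mean, the mean of 6 skeletal muscle genes stood at 5.26 on control 3 and −2.64 to −0.998 elsewhere, with Myh1 and Myh4 of these well above background on 2 of 9 arrays each, and the mean of 6 cardiac genes at −4.85 on irradiated 1 and −0.59 to 0.48 elsewhere. The mean of 3 adipose genes lay at −3.62 to −1.44 on irradiated 1, 3, 4 and 5 and at −0.55 to 0.52 on the other 5 arrays. The source of these signals and their part in the results below were not tested.

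Arntl, the activator of the loop, read 10.28, 10.15, 8.72 and 12.37 on control arrays 1 to 4. On irradiated arrays 1 to 5 it read 8.48, 9.60, 9.29, 9.52 and 11.87. Both groups thus held 1 array far above the rest, control 4 and irradiated 5, and 1 array at the bottom, control 3 and irradiated 1. The signal ran over a 12.5-fold range among the controls and a 10.5-fold range among the irradiated arrays.

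Npas2, which can take the place of Clock beside Arntl, read 4.54, 5.88, 4.14 and 6.86 on the controls. The irradiated arrays read 4.17, 4.68, 4.22, 4.42 and 6.60. Control 4 and irradiated 5 were again highest, while the low values lie close to the local background and have little meaning in their order.

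Dbp, an output factor with a steep daily rhythm, ran opposite to Arntl at the ends. It read 15.18, 15.16, 15.96 and 12.21 on the controls and 16.04, 15.00, 15.51, 15.35 and 12.18 on the irradiated arrays. The same arrays, control 4 and irradiated 5, now sat at the bottom, and control 3 and irradiated 1 at the top. The ranges were 13.5-fold and 14.5-fold. The gene's other probe had the same arrays at the low end of each group, with 12.26 on control 4 and 12.32 on irradiated 5 against 14.84 to 15.81 on the other 7 arrays.

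Tef, the relative of Dbp that acts on the same elements, read 15.72, 15.60, 16.40 and 15.05 on the controls. Its irradiated values were 16.49, 15.56, 15.58, 16.09 and 15.04. Its range was narrower, 2.54-fold among controls and 2.72-fold among irradiated arrays, with control 4 and irradiated 5 lowest again.

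The 3 Per genes encode the repressor arm. Per1 read 14.70, 15.09, 15.01 and 13.77 on the controls, and 15.25, 14.42, 15.19, 14.75 and 14.07 on the irradiated arrays. Per2 read 10.01, 10.14, 10.66 and 8.43 on the controls, and 11.26, 10.42, 10.81, 10.45 and 9.14 on the irradiated arrays. Per3 read 8.58, 8.72, 9.68 and 7.50 on the controls, and 9.32, 8.34, 8.35, 9.06 and 7.27 on the irradiated arrays. Each of the 3 was lowest on control 4 within its group and lowest on irradiated 5 within the other, and each was highest on irradiated 1 among the irradiated arrays. The range among controls was 2.50-fold for Per1, 4.70-fold for Per2 and 4.55-fold for Per3.

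Nr1d1 and Nr1d2 encode the nuclear receptors that repress Arntl. Nr1d1 read 12.08, 11.16, 11.43 and 10.54 on the controls, and 11.46, 11.74, 10.99, 11.23 and 10.36 on the irradiated arrays. Nr1d2 read 11.65, 11.51, 12.11 and 10.58 on the controls, and 12.38, 11.57, 11.98, 11.87 and 10.53 on the irradiated arrays. Both were lowest on control 4 and on irradiated 5. At the top they parted, since Nr1d1 was highest on control 1 and irradiated 2 whereas Nr1d2 was highest on control 3 and irradiated 1.

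Cry1, whose protein is the partner of the Per proteins, read 6.79, 7.12, 8.37 and 6.81 on the controls and 7.95, 7.09, 8.09, 8.15 and 7.27 on the irradiated arrays. Its lowest arrays were control 1 and irradiated 2, and its highest control 3 and irradiated 4. Control 4 lay just above the lowest control, and irradiated 5 was second lowest of its group.

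**Figure D1:**
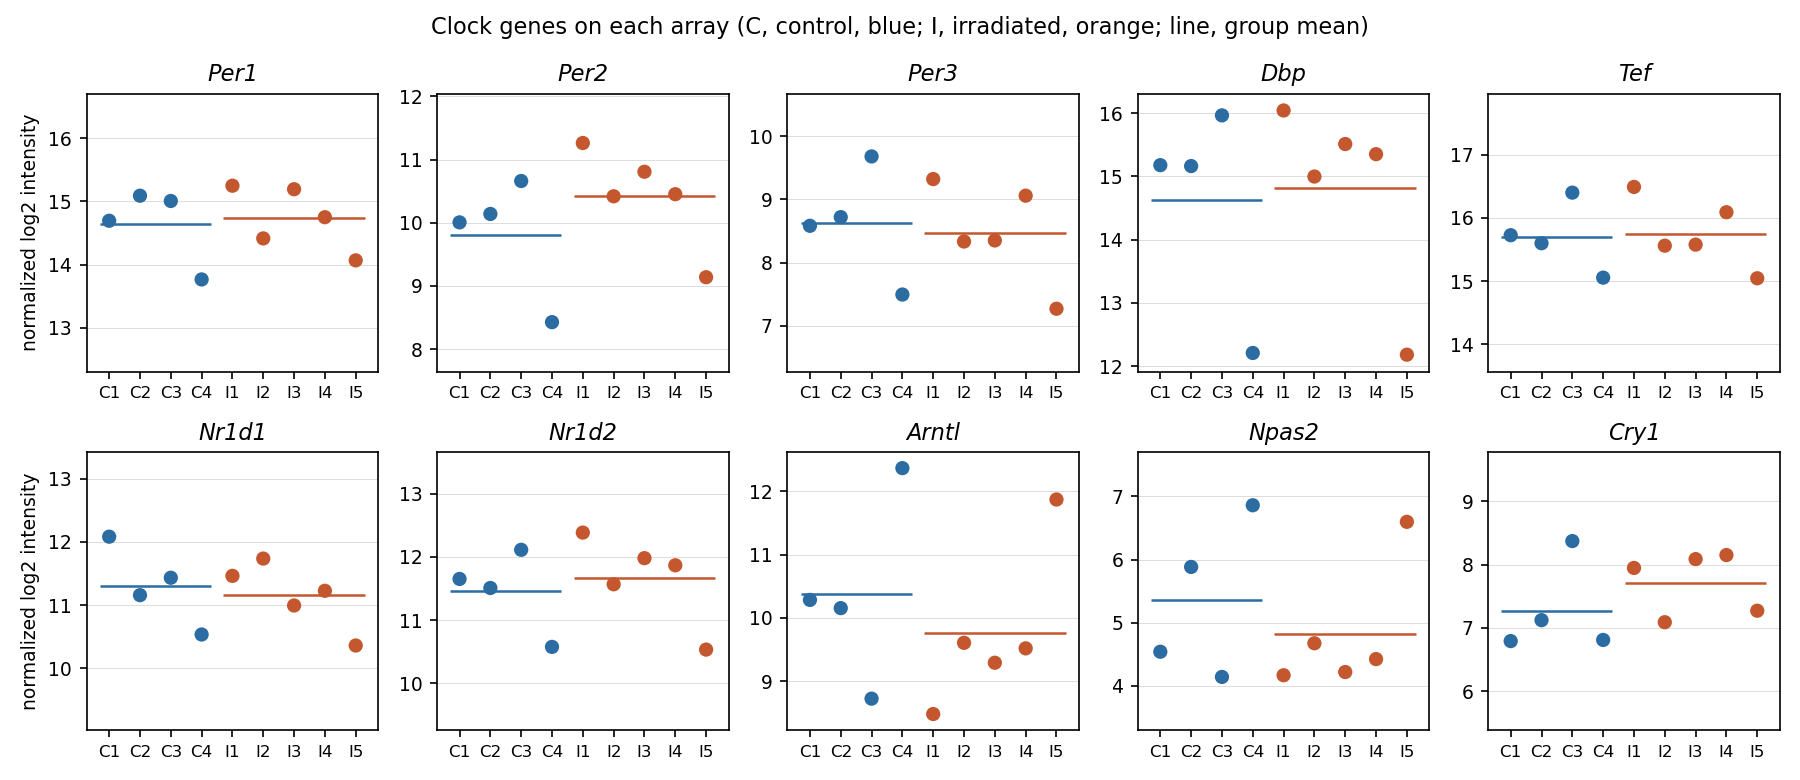
Normalized log2 intensity of each clock gene (vertical axis, the same span in every panel) on control arrays C1 to C4 and irradiated arrays I1 to I5 (horizontal axis), with lines at the group means. C4 and I5 are lowest in their group for 7 genes and highest for Arntl and Npas2.

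The spread within each group was wide for all 10 genes. The median SD of the 10 was 0.82 among controls (n = 4) and 0.74 among irradiated arrays (n = 5), against medians of 0.26 and 0.25 over all 20832 genes. The widest were Dbp, with SDs of 1.66 and 1.52, and Arntl, with 1.50 and 1.27. The SD of Dbp lay at percentile 98.9 of all genes among controls and 98.6 among irradiated arrays, and that of Arntl at 98.6 and 97.7. The narrowest was Tef among controls (SD 0.55, percentile 86) and Cry1 among irradiated arrays (SD 0.49, percentile 80). The spread rests in part on 2 arrays: without control 4 and irradiated 5 the median SD of the 10 genes was 0.47 among controls and 0.41 among irradiated arrays. The all-gene medians above are those of the full groups, so these smaller values are not compared with them.

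**Figure D2:**
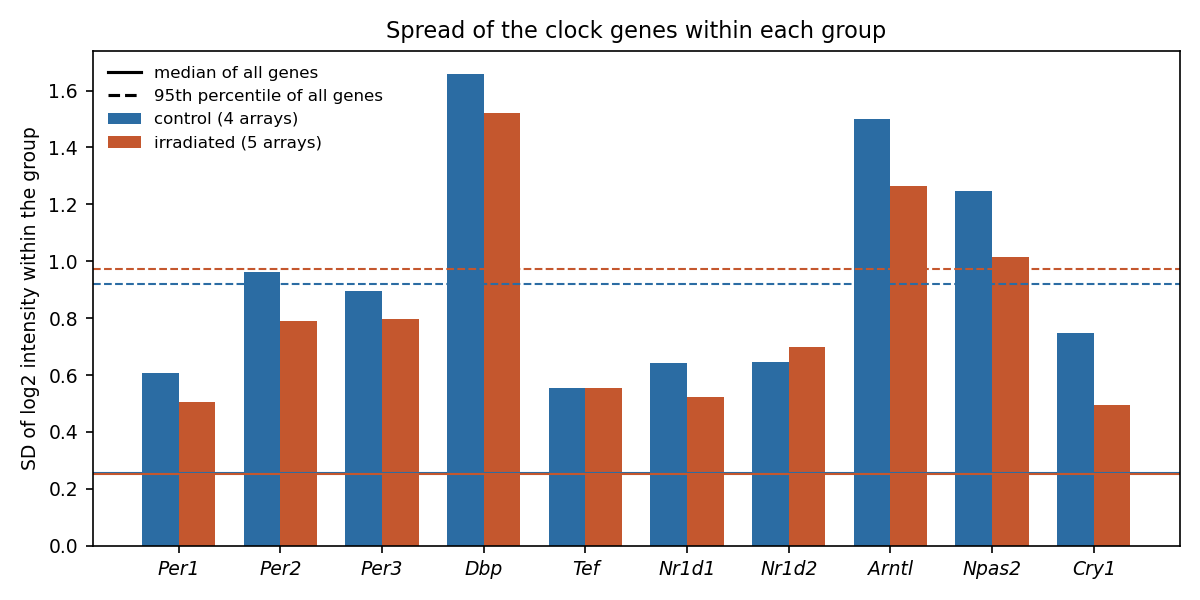
SD of the log2 intensity of each clock gene within the 4 control arrays (blue bars) and the 5 irradiated arrays (orange bars). Solid and dashed lines mark the median and the 95th percentile of the same SD over all genes in each group; every bar is above the median lines and Dbp, Arntl and Npas2 are above the dashed lines in both groups.

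Against this spread, no clock gene passed the test for a difference between irradiated and control lung. At an adjusted p under 0.05 in limma, 0 of 10 passed, where 0.333% of all 39303 probes did. At an unadjusted p under 0.05 it was also 0 of 10, against 9.94% of probes and 2501 of the 20832 genes by their brightest probe. In 0 of 10 genes did the irradiated and control arrays separate without overlap, against 4.16% of probes. The median difference of the 10 was 0.077 on the log2 scale, and over all genes 0.006.

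Arntl averaged 10.38 ± 1.50 (SD, n = 4) in control and 9.75 ± 1.27 (SD, n = 5) in irradiated lung, a difference of −0.63 with a 95% interval from −2.36 to 1.10 (limma adjusted p = 0.88, exact two-sided permutation p = 0.508). Npas2 differed by −0.54 (interval −1.99 to 0.91). Both differences rest on control 4: without it that of Arntl was 0.033 and that of Npas2 −0.039. The smallest p that 4 arrays against 5 allow in the exact test is 0.00794.

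Per2 averaged 9.81 ± 0.96 (SD, n = 4) and 10.42 ± 0.79 (SD, n = 5), a difference of 0.61 (interval −0.50 to 1.71, limma adjusted p = 0.789, exact two-sided permutation p = 0.325). Without control 4 that of Per2 was 0.15. Cry1 differed by 0.44 (interval −0.38 to 1.25). The other 6 differences lay between −0.15 for Per3 and Nr1d1 and 0.20 for Nr1d2. Each of these 6 changed sign on leaving out 1 or another array. For Dbp the difference was 0.19, and its interval from −1.80 to 2.17 was the widest of the 10. Without irradiated 1, the array with the highest Dbp level, the difference turned to −0.12 (SE 0.93). It was −0.62 without control 4 and 0.85 without irradiated 5. For Per1 the interval was narrower, −0.61 to 0.80.

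**Figure D3:**
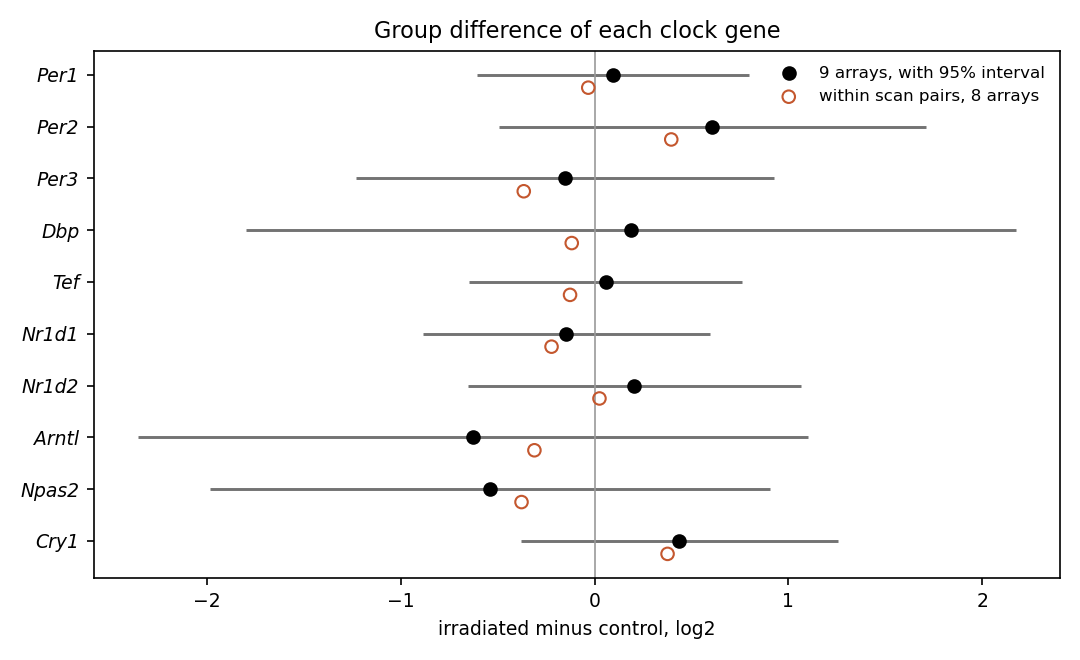
Difference in mean log2 intensity, irradiated minus control, for each clock gene over 9 arrays (black points, bars for the 95% interval from limma) and within 4 scan pairs of 8 arrays (open circles). All 10 intervals include 0.

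To compare the clock genes with all other probes across arrays, each probe was fitted on the Arntl level of the array, with the group as a further term, so that the slope is the log2 change per log2 step of Arntl among arrays of the same group. This fit takes the arrays of a group as independent and leaves out the scan pairs described further on. At an adjusted p under 0.05 in limma, 3 of 9 clock genes passed, where 7 of 39302 probes (0.0178%) did. At an unadjusted p under 0.05 all 9 passed, against 10.1% of probes. On the authors' normalized values 0 of 9 passed the adjusted threshold, while 8 probes passed it. The limma adjusted p there was 0.078 for Dbp, 0.089 for Per2 and 0.085 for Nr1d2.

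Dbp fell by 1.13 per step of Arntl (SE 0.09, limma adjusted p = 0.0039), Per2 by 0.62 (SE 0.05, limma adjusted p = 0.0039) and Nr1d2 by 0.48 (SE 0.04, limma adjusted p = 0.0082). Within the controls alone these slopes were −1.07, −0.63 and −0.42, and within the irradiated arrays alone −1.19, −0.62 and −0.55, given without a test. Each of these rests on 1 far array, control 4 or irradiated 5, and the difference between the groups was not tested.

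Npas2, the gene on the side of Arntl, was the only one of the 9 with a positive slope, 0.75 (SE 0.12, limma adjusted p = 0.146). The other slopes were −0.58 for Per3 (adjusted p = 0.084), −0.37 for Tef, −0.36 for Per1, −0.31 for Cry1 and −0.30 for Nr1d1, and none of these passed in limma. That of Cry1 ran from −0.39 to −0.17 on leaving out 1 array. As a description over 9 arrays, which share the group means and a pair of far arrays, the correlation of deviations with those of Arntl ran from −0.99 for Per2 to −0.69 for Cry1, and was 0.92 for Npas2.

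The calls rest on control 4 and irradiated 5, the arrays farthest from the median Arntl level. Without both, 0 of 9 clock genes and 0 probes passed the adjusted threshold in limma. At an unadjusted p under 0.05 there were then 6 of 9 (Dbp, Per2, Nr1d2, Per3, Tef and Cry1), against 4.44% of probes. The slopes without them were −0.62 for Dbp, −0.52 for Per2 and −0.44 for Nr1d2. Those of Cry1, Per3 and Tef were −0.74, −0.68 and −0.55, whereas that of Nr1d1 turned to 0.11. The calls were also lost with the scan pair as a further term, over 8 arrays without irradiated 1: 0 of 9 clock genes and 0 probes passed in limma, while the same 8 arrays without that term gave 3 clock genes and 13 probes. At an unadjusted p under 0.05 there were then 3 of 9 (Per2, Dbp and Cry1), against 3.95% of probes. The slopes within pairs were −0.52 for Per2 (SE 0.15), −0.47 for Dbp (SE 0.14), −0.57 for Cry1 (SE 0.21) and 0.013 for Nr1d1 (SE 0.10). That of Nr1d2 was −0.29 (SE 0.16), of Per3 −0.21 (SE 0.15) and of Per1 −0.17 (SE 0.18). Tef had −0.16 (SE 0.09) and Npas2 0.72 (SE 0.49).

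**Figure D4:**
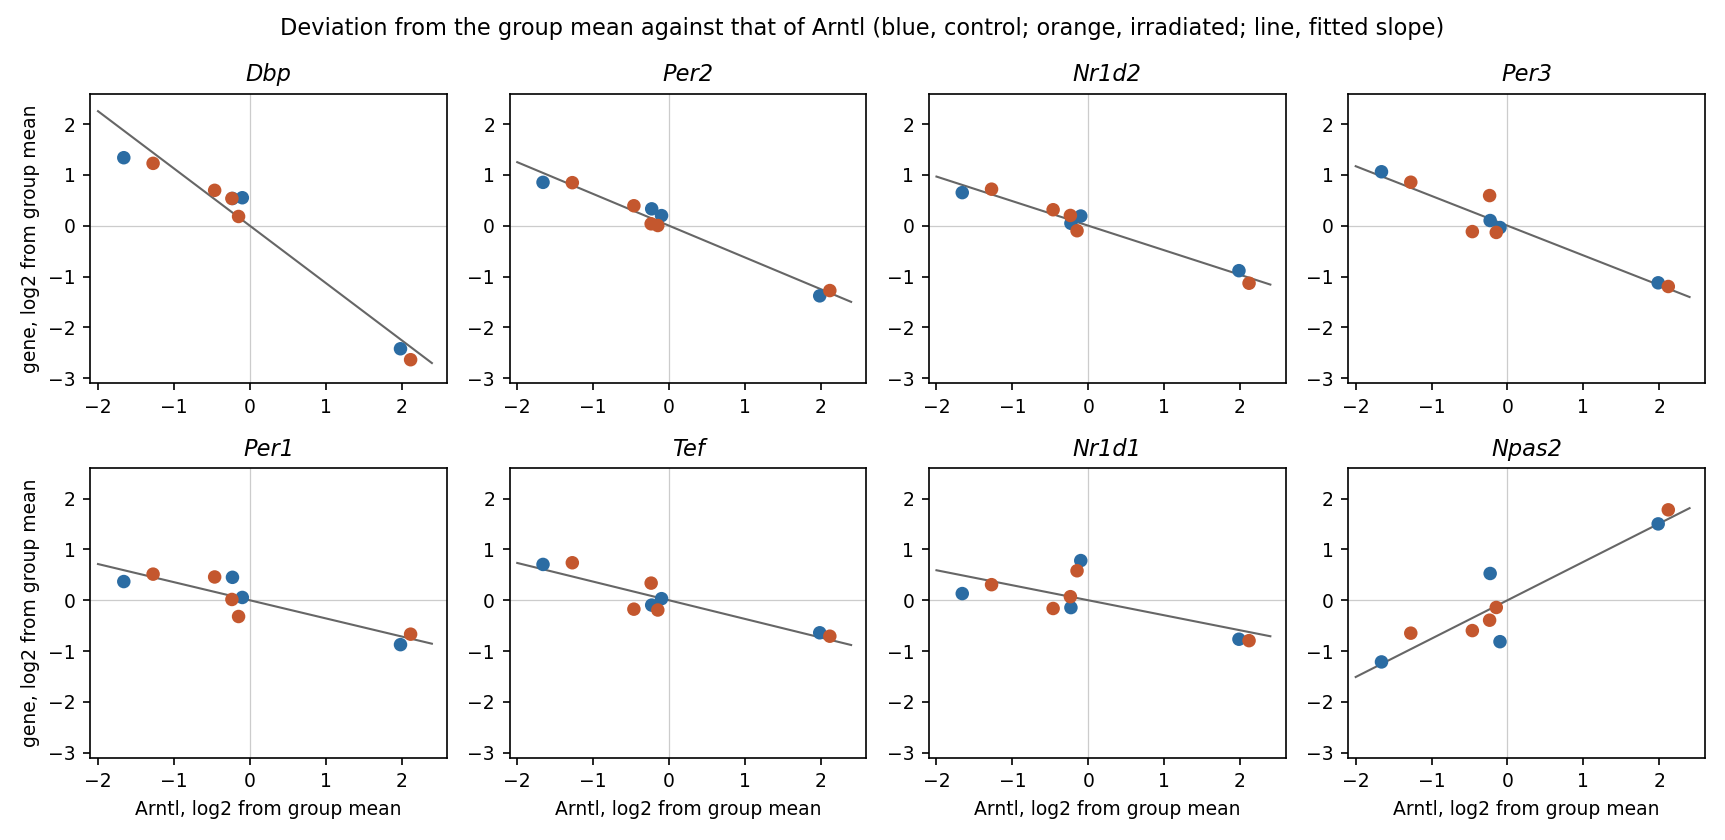
Deviation of a clock gene from its group mean (vertical axis, log2) against that of Arntl (horizontal axis, log2) on 9 arrays, for 8 of the 9 other genes. Lines are the fitted slopes. Cry1 is not shown. Its deviations correlated at −0.69 with those of Arntl, and it was lowest on control 1 and irradiated 2 within their groups. The 2 points at the right are control 4 and irradiated 5, low for 7 genes and high for Npas2.

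The 7 probes that passed the Arntl slope were both Dbp probes, those of Per2 and Nr1d2, Hlf, Tspan4 and 1 probe without a gene name. Hlf, the third member of the family of Dbp and Tef, fell by 0.58 per step (SE 0.05, limma adjusted p = 0.0052). Tspan4, a membrane protein of the tetraspanin family, fell by 0.55 (SE 0.03, limma adjusted p = 0.0019). Tspan4 read 12.61, 12.67, 13.62 and 11.60 on the controls and 13.90, 13.17, 13.58, 13.37 and 12.05 on the irradiated arrays, so control 4 and irradiated 5 were lowest here as well.

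Among 15637 genes outside the lists, the 5 whose deviations from the group means were most like those of Arntl over the 9 arrays were Slc25a35 (correlation 0.994), Gm12695 (0.981), Adra1a (0.970), Il1r1 (0.969) and Il18r1 (0.965). The most opposed were Tspan4 (−0.994), Dcbld1 (−0.975), Btbd3 (−0.971), Sp8 (−0.969) and Olfr332 (−0.965). These were the extremes of a long list, and of the 10 only Tspan4 passed the slope in limma. The steps of Slc25a35 were small, from 9.61 on control 3 to 10.25 on irradiated 5.

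Control 4 and irradiated 5 also shared features of their scans. Going by the y position of the first spot on the image and the local background, 8 arrays fell into 4 pairs of 1 control and 1 irradiated array. These were control 1 with irradiated 2, control 2 with irradiated 3, control 3 with irradiated 4, and control 4 with irradiated 5. The x positions differed within every pair. Median local backgrounds within the pairs were 27 and 25.5, 43.5 and 45.5, 36 and 35, and 24 and 24. Irradiated 1, at 40, was given no partner, though its y position of 224.3 lay near the 220.1 of irradiated 3. The files name no slide or scan, so what else the arrays of a pair share is not stated. Control 4 and irradiated 5 also carry another release of the probe annotation. Across genes, which are not independent replicates, the deviations of the paired arrays correlated at 0.32, 0.17, 0.33 and 0.44.

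In a test of the pair beside the group, added after the data were seen, 8 of 10 clock genes passed at an adjusted p under 0.05 in limma (Per1, Per2, Per3, Dbp, Tef, Nr1d1, Nr1d2 and Arntl), against 5.33% of all probes. Dbp averaged 15.09, 15.34, 15.66 and 12.19 over the 4 pairs in the order given above, a range of 3.47 (limma adjusted p = 0.031), while its partners differed by at most 0.61. Nr1d1 averaged 11.91, 11.08, 11.33 and 10.45, with differences within pairs of −0.35, −0.16, −0.21 and −0.17. Without the pair of control 4 and irradiated 5, 0 of 10 clock genes and 0 of all probes passed in limma, and 5 of the 10 genes had an unadjusted p under 0.05, against 24% of all probes. The part of the scan features in this was not tested.

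The pairs leave out irradiated 1, and the differences within them equal those of the same 8 arrays without the pair, so that the pair term alters the SE alone. For Dbp, at −0.12, the SE was 0.93 without the pair term and 0.16 with it. Within the pairs, again 0 of 10 clock genes passed between irradiated and control lung in limma, against 2.8% of all probes, and 2 had an unadjusted p under 0.05, against 20.9% of probes. Those 2 were Per3, at −0.37 (SE 0.10, limma adjusted p = 0.13), and Nr1d1, at −0.22 (SE 0.06, limma adjusted p = 0.121). Values of Per3, Nr1d1 and Tef were below those of the control partner in 4 of 4 pairs, a pattern that 16.8% of all probes had. Those of Arntl, Dbp and Nr1d2 were below in 3 of 4, those of Per1 and Npas2 in 2 of 4, and those of Per2 and Cry1 in 1 of 4. With the Arntl level of each array as a covariate in place of the pair, 0 of 9 passed in limma, against 0.359% of probes. At an unadjusted p under 0.05 there were 2, against 10.9% of probes, namely Per3 at −0.52 (limma adjusted p = 0.342) and Dbp, also at −0.52 (limma adjusted p = 0.424).

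**Figure D5:**
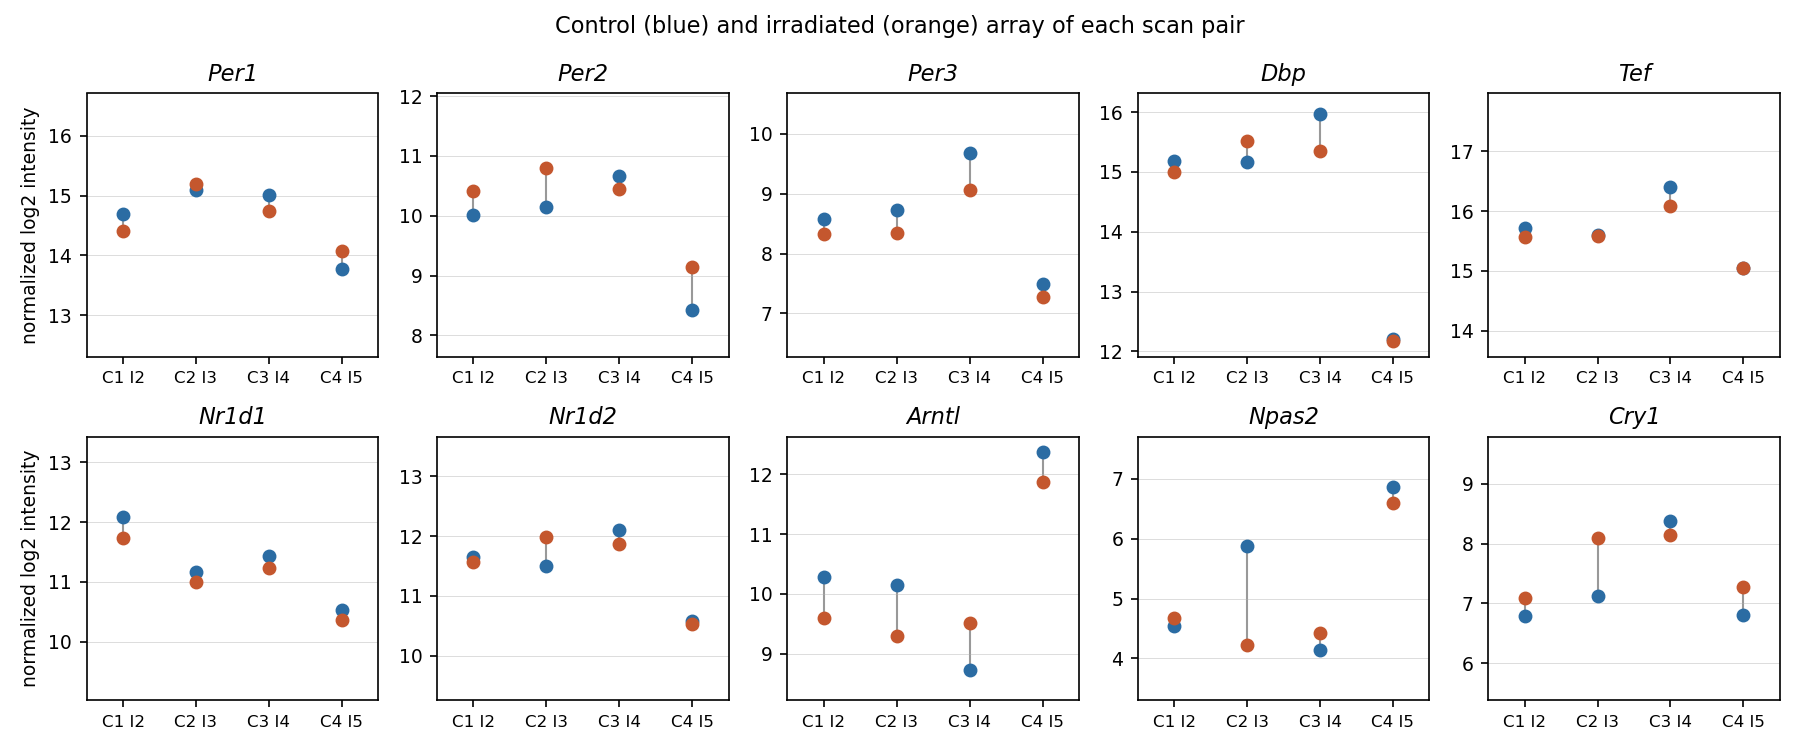
Normalized log2 intensity of each clock gene (vertical axis, the same span in every panel) in the 4 scan pairs (horizontal axis), with the control array in blue and its irradiated partner in orange joined by a line. For Dbp the partners differ by at most 0.61, while the pair means span 3.47.

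Of 31 other genes of the clock and its regulation, all were measured and 30 were well above background on every array. None passed the difference between irradiated and control lung in limma. At an unadjusted p under 0.05 there were 3 (Bhlhe40, Noct and Btrc), against 9.94% of all probes and 2501 of all 20832 genes, so no more than the share over all features. The median difference of the 31 was 0.048. With the Arntl slope 1 passed, Hlf, and 8 had an unadjusted p under 0.05, against 10.1% of probes. With the pair term 3 passed, Hlf, Ciart and Csnk1e, against 5.33% of probes.

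Bhlhe40, a repressor that competes for E-boxes, read 11.58, 11.35, 11.14 and 10.41 on the controls and 11.62, 11.96, 12.37, 11.99 and 11.53 on the irradiated arrays. All irradiated arrays but irradiated 5, which lay just below control 1, were above the controls. The difference was 0.78 (SE 0.24, limma adjusted p = 0.27) and within the pairs 0.85 (SE 0.13, limma adjusted p = 0.048), higher in 4 of 4.

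Noct, an enzyme whose message is rhythmic in many tissues, differed by 0.50 (SE 0.13, limma adjusted p = 0.171) and was higher in 4 of 4 pairs. Btrc, an F-box protein that marks Per proteins for breakdown, differed by −0.43 (SE 0.16, limma adjusted p = 0.376). Within the pairs Btrc fell by 0.48 (SE 0.07, limma adjusted p = 0.043), lower in 4 of 4. Bhlhe40 and Btrc were the only 2 of the 31 to pass within the pairs, against the 2.8% given above. The remaining 3 of the 6 largest differences were Nfil3 at 0.39, Rorb at −0.29 and Ciart at 0.21.

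Hlf read 10.95, 11.43, 11.97 and 10.02 on the controls and 11.92, 11.18, 11.55, 11.54 and 9.89 on the irradiated arrays. Ciart, a repressor of the Arntl and Clock pair, read 8.81, 9.91, 10.27 and 8.25 on the controls and 10.01, 9.32, 10.21, 9.87 and 8.19 on the irradiated arrays. Both were lowest on control 4 and irradiated 5. Clock itself, whose level changes little over the day in many tissues, ran from 9.97 to 11.03 over all arrays with an Arntl slope of 0.18 (SE 0.06, limma adjusted p = 0.398).

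Body temperature and glucocorticoids are known to carry timing signals to peripheral clocks. Of 8 genes that respond to temperature 7 were measured, none passed between the groups in limma, and 5 had an unadjusted p under 0.05, against 9.94% of probes. Of the heat shock genes, Hsph1 differed by 0.88 (SE 0.19, limma adjusted p = 0.112), Dnajb1 by 0.67 (SE 0.13, limma adjusted p = 0.076), Hspa1a by 1.14, Hsp90aa1 by 0.39 and Hspa8 by 0.20. Of the 2 genes induced by cold, Cirbp differed by −0.46 (SE 0.12, limma adjusted p = 0.191) and Rbm3 by 0.08 (SE 0.11). Within the pairs 1 of the 7 passed, against 2.8% of probes, namely Hsph1 at 0.98 (SE 0.14, limma adjusted p = 0.042), and it also passed on the same 8 arrays without the pair term (limma adjusted p = 0.041), that is, on leaving out irradiated 1. None of the 7 passed the Arntl slope in limma. Rbm3 alone, with a slope of −0.10, had an unadjusted p under 0.05, against 10.1% of probes.

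Of 10 genes induced by glucocorticoids, 1 passed between the groups in limma, against 0.333% of probes: Cdkn1a, at 1.90 (SE 0.31, limma adjusted p = 0.044). Cdkn1a is also a classic target of p53. It missed the threshold without control 4 and irradiated 5, at 2.01 (limma adjusted p = 0.248), and at equal Arntl level, at 1.91 (limma adjusted p = 0.062). Lcn2 differed by 1.74 (SE 0.38, limma adjusted p = 0.112). With the pair term 5 of the 10 passed, against 5.33% of probes: Fkbp5, Tsc22d3, Zbtb16, Cdkn1a and Per1, which is also one of the clock genes above. The median difference was 0.39 for the 7 temperature genes and 0.10 for the 10 glucocorticoid genes. Within the pairs 3 of the 10 passed between the groups in limma, Cdkn1a, Lcn2 and Fkbp5, against 2.8% of probes. Lcn2 differed there by 1.99 (SE 0.17, limma adjusted p = 0.026) and was higher in 4 of 4 pairs. On the same 8 arrays without the pair term Lcn2 (limma adjusted p = 0.030) and Cdkn1a (limma adjusted p = 0.041) passed as well. Fkbp5 differed by 0.54 (SE 0.26, limma adjusted p = 0.532) over all arrays and by 0.53 (SE 0.055, limma adjusted p = 0.028) within the pairs. None of the 10 passed the Arntl slope in limma. An unadjusted p under 0.05 was found for 4 (Per1, Fkbp5, Tsc22d3 and Klf9), all with negative slopes, against 10.1% of probes.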

How the data were processed

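The authors deposited, per array, the output of Agilent Feature Extraction as intensity values that were not normalized between arrays (the background-corrected processed signal, the spot and local background medians and quality marks), and a table of their own quantile-normalized intensity values, used as an alternative. Spots were numbered from scan positions, since the written numbers did not match that table. Control and outlier spots were dropped. Kept were 39303 of 39429 probes, those above 1.4-fold local background in 4 or more of the 9 arrays, and these were put on a log2 scale, quantile normalized and averaged per probe. Names came from RefSeq (GRCm38.p6) through accessions for 69.9% of probes, and Hspa1b, Scgb3a2 and Cd68 were not found. For 88 probes 1 or more arrays gave no value.

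Fits used limma 3.58.1 in R 4.3.3 (lmFit, eBayes with an intensity trend) over all probes, with Benjamini-Hochberg adjustment. The group difference and the Arntl slope were also run on simulated data with independent noise on each array. Those data held no likeness between the arrays of a scan pair, so they cannot show how the fits behave under it. The clock genes and the lists were chosen with earlier results of these data known. Named beyond the 10 clock genes were, of the other clock genes, those past a threshold and the 6 with the largest difference among those well above background, and the 5 most and 5 least like Arntl. Clock and the temperature and glucocorticoid genes named were chosen after their values were seen. Arrays limit the precision by their number. The alternatives were scaling to the 75th percentile, normexp with an offset of 50, other background filters, the authors' table, no intensity trend, array weights, leaving out each array, a replicate block, an adjusted p under 0.01, all probes of a gene and, added after the data were seen, scan pairs and fits without control 4 and irradiated 5.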

Additional observations from a re-analysis of the deposited data

Results flagged for a closer look

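Among the 20 genes named as clock genes or as like or opposed to Arntl, each group of 4 or 5 arrays was tested for 1 array far from the rest by Dixon's ratio, 40 tests in all. There were 4 such arrays, all of them irradiated 5, where chance gives about 1 in 20 groups. The tests share arrays, and 10 of the genes were picked for following or opposing Arntl, so this rate is no measure for the count. Dbp on irradiated 5 read 12.18, with the nearest other irradiated array at 15.00. Npas2 on irradiated 5 read 6.60, with the nearest at 4.68, and the lowest irradiated array was not well above background. Adra1a on irradiated 5 read 7.73, with the nearest at 6.63, and Sp8 on irradiated 5 read 7.69, with the nearest at 8.40. Adra1a was picked as like Arntl, which was also highest on that array, and Sp8 as opposed to it. Control 4 stood at the same end for all 4 genes within its group and did not pass this ratio. The cause was not tested.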

How the results depend on the processing

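In each alternative fitted over all probes, 0 of 10 clock genes passed the group difference (0 of 9 with the Arntl covariate, and the mean over a gene's probes was not tested), and the signs of Per2, Npas2 and Cry1 held throughout. Leaving out each array in turn gave ranges of 0.15 to 0.93 for Per2, −0.98 to −0.039 for Npas2, 0.28 to 0.80 for Cry1, −0.20 to 0.26 for Per1, −0.53 to 0.20 for Per3, −0.62 to 0.85 for Dbp, −0.16 to 0.29 for Tef, −0.40 to 0.11 for Nr1d1, −0.091 to 0.49 for Nr1d2 and −1.18 to 0.033 for Arntl. Replicate numbers did not pair the arrays (correlation of deviations 0.098, −0.016, −0.0033 and −0.16), and the replicate block also leaves out irradiated 5. Under it Per3 was 0.15 and Nr1d1 0.053, and 0 clock genes and 0 probes passed the Arntl slope, all as without irradiated 5 and no block. The group difference had 1 probe, against 23 without the block. The scan pair block also leaves out irradiated 1, and its −0.033 for Per1, −0.12 for Dbp and −0.13 for Tef are those without irradiated 1 and no block. Without control 4 and irradiated 5 Per1 was −0.029. The Arntl covariate gave −0.13 for Per1, −0.52 for Dbp, −0.17 for Tef and −0.10 for Nr1d2.

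The 131 probes past the group difference became 197 with the filter on all 9 arrays, 44 with the authors' table, 44 without an intensity trend, 5 at an adjusted p under 0.01, 1099 with scan pairs (2 of the other clock genes) where leaving out irradiated 1 alone gave 476, 2 without control 4 and irradiated 5, and 5 to 476 on leaving out 1 array. The 3 clock genes past the Arntl slope became 0 with the authors' table, 8 with array weights and 0 without the 2 farthest arrays, where Nr1d1 was 0.11, and 0 to 3 on leaving out 1 array, with 0 without control 4 and 0 without irradiated 5. With scan pairs 0 clock genes and 0 probes passed it, and the slope of Nr1d1 was 0.013. The 7 probes became 8 with the authors' table, 11 with scaling to the 75th percentile and 11 with the filter on all 9 arrays. They became 3971 with array weights, 0 without the 2 farthest arrays and 0 to 13 on leaving out 1 array. The pair term fell from 8 clock genes and 2094 probes to 0 and 0 without the pair of control 4 and irradiated 5. The median SD ranged from 0.47 to 1.00 among controls and 0.41 to 0.86 among irradiated arrays on leaving out 1 array, and was 0.47 and 0.41 without control 4 and irradiated 5. The causes were not tested.

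A block of slides or scans named in the files was not run, since the files name none, and the scan pairs stand in for it. Dose, region, interval and time of day are in no label, the arrays are pools, and Npas2 is close to background. The intervals in the report are those of a fit that ignores the scan pairs, and the SEs within the pairs were smaller for all 10 clock genes.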
